A study of Mus musculus with 4 samples.

Results

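The p53 targets and senescence genes Cdkn1a, Cdkn2a, Cdkn2b, Cdkn1b, Trp53inp1, Mdm2, Aen, Bbc3 and Gdf15 were read from single-cell RNA-seq of mouse pancreatic islets. They were chosen by symbol and are 9 of the 32285 genes measured. The study compared Xbp1β-/- mice, whose beta cells lack Xbp1, with Xbp1fl/fl mice carrying the floxed allele without that deletion, at 5 weeks of age and with 2 samples per genotype. Mice of both genotypes were given tamoxifen by injection to switch on Cre, the series title names NOD mice, a strain that develops autoimmune diabetes, and the labels do not give the promoter that drove Cre. Islets were isolated with collagenase, picked by hand, cultured overnight and dissociated with accutase before 10x library preparation. The 4 libraries are known only by the number that each cell barcode carries, and no label ties a number to a mouse. Values are therefore given by library number, which carries no order and no genotype, and no test between libraries was run.

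The transcription factor p53, encoded by Trp53, is stabilised by DNA damage and other stresses and switches on genes that stop the cell cycle, repair DNA or start apoptosis. Among its classical targets are the cyclin-dependent kinase inhibitor Cdkn1a (p21), the ubiquitin ligase gene Mdm2, whose product degrades p53, and Bbc3 (PUMA), which promotes apoptosis. Senescence is a lasting arrest of the cell cycle held by p21 and by the INK4 inhibitors p16 and p15, encoded by Cdkn2a and Cdkn2b. It often comes with secretion of cytokines, proteases and growth factor binding proteins. In beta cells p16 accumulates with age and restrains replication, and beta cells with senescence markers have been described in NOD mice. Xbp1 acts in the unfolded protein response, whose PERK branch raises a separate set of stress genes that includes Ddit3 and Trib3.

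Promoter windows of 250 bases before to 50 bases after each start site, taken from RefSeq (GRCm38.p6), were found for 8 of the 9 genes, with 14 windows in all. They were searched on both strands for the p53 response element with no spacer, at most 2 mismatches and the outer C and G of each core kept. Of 32851 windows of the same length over all genes, 107 (0.326%) held it. Among the 14 windows it was found in 1, the upstream window of Cdkn1a (chr17:29090729-29091028, plus strand), which is shown because the results below turn on Cdkn1a and other p53 targets. Capitals mark the element, at chr17:29090928-29090947. It starts 51 bases before the start site and has 1 mismatch.
Cdkn1a upstream window: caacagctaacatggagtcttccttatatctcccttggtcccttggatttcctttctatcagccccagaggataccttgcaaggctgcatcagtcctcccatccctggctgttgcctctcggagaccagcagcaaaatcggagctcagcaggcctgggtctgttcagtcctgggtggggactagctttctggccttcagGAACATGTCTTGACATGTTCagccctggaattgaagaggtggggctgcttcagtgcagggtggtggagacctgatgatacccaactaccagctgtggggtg

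Of 30 other known p53 targets, 23 had windows and 3 of them held the element. It lay at chr11:40755462-40755481 (minus strand, 1 mismatch) for Ccng1, at chr9:66946296-66946315 (plus strand, 1 mismatch) for Rps27l and at chr8:22186003-22186022 (minus strand, 2 mismatches) for Ckap2. The elements are aligned here to show what they share, with the cores in capitals.
Cdkn1a: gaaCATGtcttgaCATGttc
Ccng1: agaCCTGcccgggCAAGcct
Rps27l: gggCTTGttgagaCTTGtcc
Ckap2: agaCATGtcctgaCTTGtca
Sequences linked to the unfolded protein response and to ATF4 were searched on both strands as well. TGACGTG stood in 2.01% of all windows, the ER stress element in 0.0365% and TTGCATCA in 0.895%, and none of them in a window of the 9 genes. A match describes the letters of a window and no more.

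After filtering, 16146 of 19987 barcodes remained as cells. Library totals of these cells were 82247327, 175848848, 84544892 and 109975363 unique molecular identifiers (UMIs) in libraries 1 to 4. Beta cells (Ins2 at 5% or more of UMIs) numbered 589, 3342, 733 and 2221. They were split at 0.5% of UMIs from Spp1, the gene of the secreted protein osteopontin, and 6.82 to 23.3% of beta cells per library lay between 0.25% and 1%. Spp1-high beta cells numbered 355, 131, 377 and 219, and Spp1-low beta cells 234, 3211, 356 and 2002. Alpha cells (Gcg at 5% or more) numbered 252, 769, 298 and 727, delta cells (Sst at 3% or more) 220, 426, 334 and 403, and non-endocrine cells 2474, 398, 1922 and 210. A further 631 cells met more than 1 hormone threshold and stayed out. Of 19942 barcode sequences, 45 occurred in more than 1 library, and no doublet caller was run, so doublets remain. The 11 beta markers other than Ins2 summed to 179392 to 214549 CPM (UMIs per 1e6 UMIs of the class) in the 2 groups of beta cells, and to 2385 to 8888 CPM in alpha cells. In delta cells they summed to 53322 to 78449 CPM, beside 6704 to 9091 CPM for the 6 delta markers other than Sst.

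Levels below are CPM of UMIs summed over the cells of a class in 1 library. Of beta cell UMIs, 40.0, 57.7, 40.9 and 56.5% came from hormone genes in libraries 1 to 4, against 26.3 to 30.4% in alpha cells, 23.1 to 28.6% in delta cells and 0.646 to 2.45% in non-endocrine cells. On this scale the median gene was therefore lower in beta than in alpha cells by a log2 ratio of -0.23, -0.52, -0.16 and -0.54, and lower than in delta cells by -0.28, -0.54, -0.25 and -0.52. Ratios are log2 ratios of CPM with 10 CPM added, taken within a library, and a gene was counted where its ratio passed 2-fold in 1 direction in every library. Genes had to reach 20 CPM in a class. Intervals (95%, exact Poisson or Clopper-Pearson) and limits on counts of 0 cover counting error only.

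**Figure D1:**
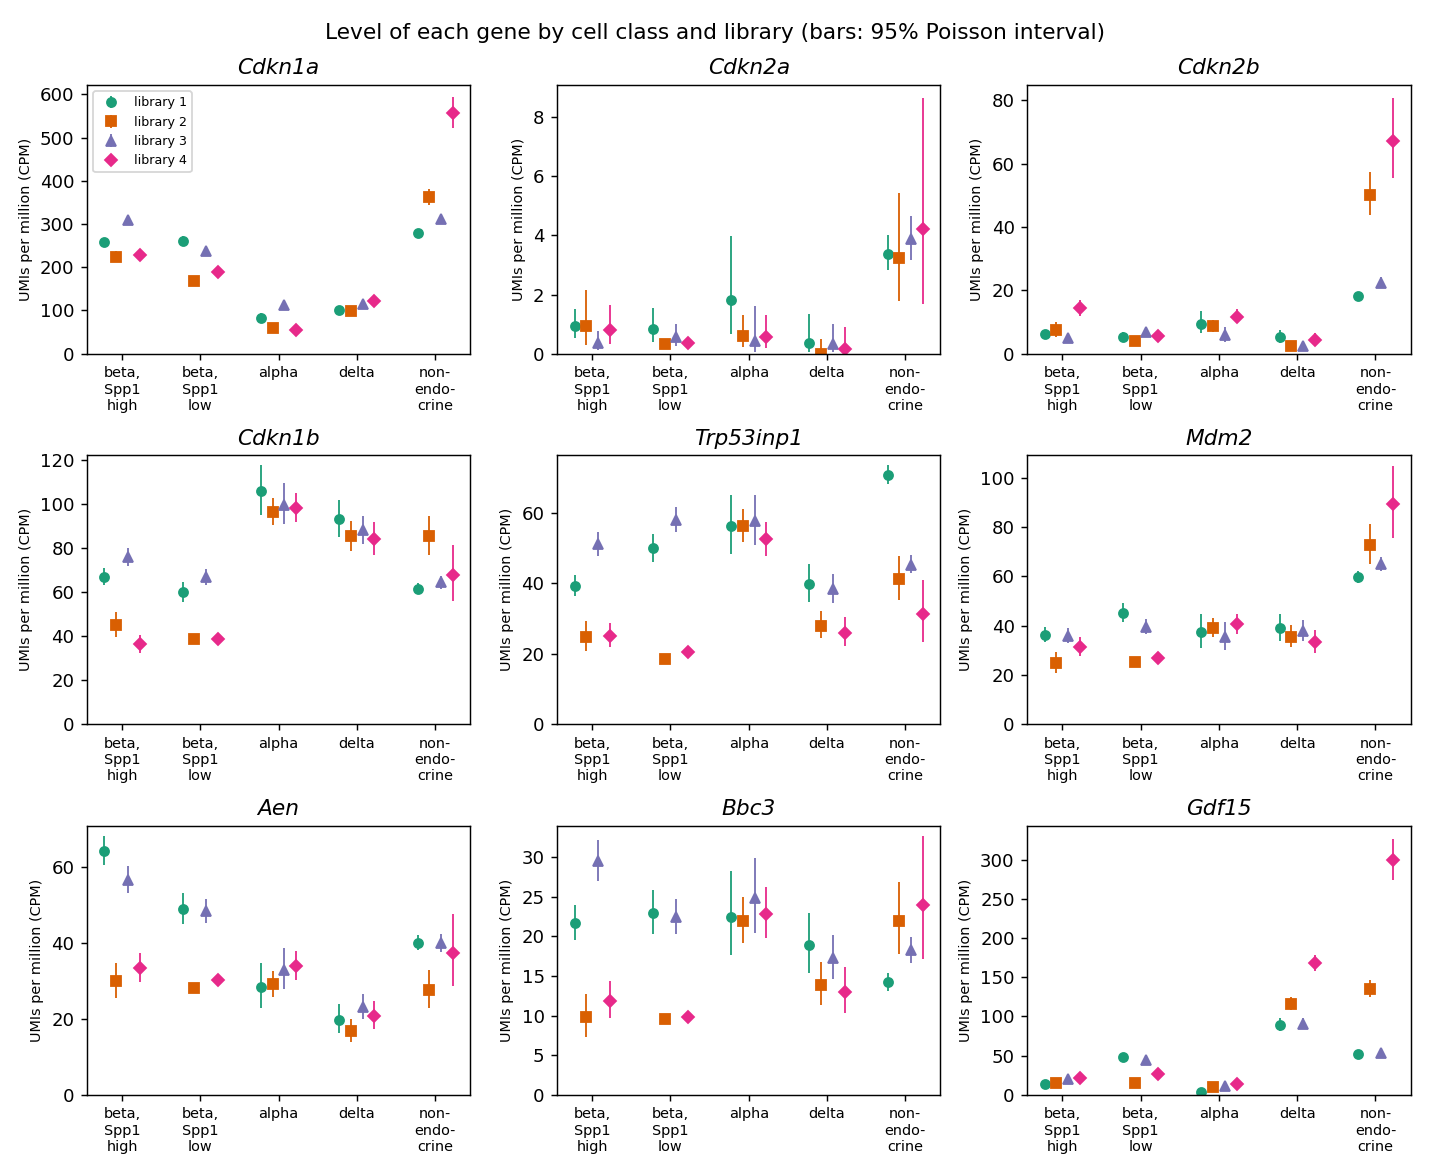
Level of each of the 9 genes in CPM (y axis) by cell class (x axis), with 1 point per library and bars for the 95% exact Poisson interval of the count. Cdkn1a lies at 167 CPM or more in both groups of beta cells in every library and at or below 123 CPM in alpha and delta cells, while Gdf15 is high in delta and non-endocrine cells.

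Cdkn1a (ENSMUSG00000023067, GRCm38 chromosome 17, 29090976 to 29100727, plus strand) encodes p21, which binds cyclin-CDK complexes and stops the cell cycle, and was higher in beta cells than in the other hormone cells. It stood at 259, 224, 308 and 229 CPM in Spp1-high beta cells of libraries 1 to 4 and at 262, 167, 239 and 190 CPM in Spp1-low beta cells. Alpha cells held 83.2, 59.8, 113 and 55.6 CPM and delta cells 100, 98.0, 115 and 123 CPM. The lowest level in either group of beta cells lay above the highest level in alpha or delta cells. Non-endocrine cells, with 280, 362, 311 and 558 CPM, lay above the level over all beta cells in every library. The log2 ratio of beta over alpha cells was 1.53, 1.36, 1.20 and 1.64 in libraries 1 to 4, with a median of 1.45. Cdkn1a was the 1 gene of 7 tested here that passed 2-fold between beta and alpha cells in every library, where 1.83% of all 6880 genes were higher by this rule and 4.35% lower. Over delta cells the ratio was 1.29, 0.73, 1.18 and 0.62. Without 7 hormone genes in the totals it was 1.66, 1.48, 1.54 and 1.32 over delta cells, past 2-fold in every library, and 1.85, 2.10, 1.45 and 2.36 over alpha cells, where 3.4% of all genes were past 2-fold higher and 2.75% lower on that scale.

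Beta cells were also the deepest class, at a median of 37371 to 45314 UMIs per cell against 11251 to 12977 in alpha cells and 14476 to 21976 in delta cells. At a fixed depth of 5000 UMIs per cell, Cdkn1a was detected in 57.8, 42.4, 58.3 and 46.7% of beta cells. It was detected in 17.9, 16.05, 22.5 and 17.7% of alpha cells, in 29.0, 32.6, 33.3 and 40.8% of delta cells and in 53.1, 61.8, 52.1 and 77.3% of non-endocrine cells. The order of the endocrine classes was thus the same in shares of cells as in CPM, in every library. B cells gave the lowest share, 4.05% (1.96 to 7.32%) in library 1 and 3.86% (1.78 to 7.21%) in library 3. Whether this share is background was not tested, and it does not cover libraries 2 and 4. B cells had a median of 4467 UMIs per cell, and those under 5000 were left out of these shares. Without thinning, the median share of beta cells with Cdkn1a over the libraries was 85.3% rather than 52.2%.

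Cdkn1b (p27), a CDK inhibitor active in resting cells and controlled mainly at the level of its protein, ran the other way. It stood at 66.9, 44.9, 75.8 and 36.2 CPM in Spp1-high beta cells and at 59.9, 38.7, 66.7 and 38.4 CPM in Spp1-low beta cells. Alpha cells held 106, 96.3, 99.6 and 98.1 CPM and delta cells 93.0, 85.3, 87.9 and 84.0 CPM, and neither range overlapped that of a group of beta cells. The ratio of beta over alpha cells was -0.65, -1.12, -0.43 and -1.17, lower in every library, as were 58.2% of all genes. With hormone genes out of the totals it was -0.40, -0.54, -0.23 and -0.60. The separation from delta cells did not hold on that scale, where the ratio of beta over delta cells was -0.17, -0.34, 0.04 and -0.39, against -0.48, -0.96, -0.27 and -0.96 with hormone genes in the totals. Its 3 most similar genes over 20 profiles of class and library, by Pearson correlation among 9133 genes, were Tnrc6b (0.98), Phtf1 (0.98) and Arid1a (0.98), while Cdkn1a was closest to Fmn1 (0.95), Svil (0.95) and Itpkb (0.94). The profiles of a library share its processing, so these values are descriptions.

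Cdkn2a and Cdkn2b, the INK4 genes whose products inhibit CDK4 and CDK6, were hardly seen in endocrine cells. They lie beside each other on chromosome 4 (GRCm38, 89274471 to 89294653 and 89306299 to 89311039, both on the minus strand, in GENCODE M21), 11645 bases apart, and counts for Cdkn2a do not separate p16 from ARF, its other product. Cdkn2a gave 26, 50, 16 and 35 UMIs in all beta cells of libraries 1 to 4, or 0.897, 0.347, 0.451 and 0.408 CPM. Alpha cells held 0.444 to 1.82 CPM, and delta cells 0 to 0.370 CPM, where the count of 0 in library 2 allows up to 0.400 CPM. Non-endocrine cells held 3.38, 3.24, 3.86 and 4.20 CPM, above each endocrine class in each library. At 5000 UMIs, at most 0.188% of beta cells in a library had a Cdkn2a UMI, against 1.30, 0.971 and 2.26% of non-endocrine cells in libraries 1 to 3. In library 4 it was 0 of 141 non-endocrine cells, with an exact upper bound of 2.58%. A rise in a small share of beta cells was not detectable at this depth.

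Cdkn2b stood at 6.30, 7.37, 4.92 and 14.4 CPM in Spp1-high beta cells, at 5.24, 4.11, 6.87 and 5.52 CPM in Spp1-low beta cells, at 5.77 to 11.7 CPM in alpha cells and at 2.30 to 5.18 CPM in delta cells. These ranges overlapped. Non-endocrine cells held 18.2, 50.2, 22.4 and 67.2 CPM, all above the endocrine classes. With hormone genes in the totals neither INK4 gene reached 20 CPM in an endocrine class, so ratios among endocrine classes were not counted. Without them Cdkn2b stood at 9.68, 16.7, 7.75 and 31.8 CPM in Spp1-high beta cells. Its ratio to Spp1-low beta cells was then -0.02, 0.44, -0.34 and 0.88, of mixed sign.

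Of the genes that feed back on p53, Trp53inp1 (ENSMUSG00000028211, chromosome 4, 11156431 to 11174379, plus strand), whose product binds p53 and promotes arrest, apoptosis and autophagy, was among the 2 that differed most between libraries in Spp1-low beta cells. Spp1-high beta cells held 39.1, 24.7, 51.1 and 25.1 CPM, and Spp1-low beta cells 49.8, 18.6, 58.0 and 20.6 CPM. Alpha cells held 56.2, 56.2, 57.7 and 52.4 CPM. Its levels in alpha cells were thus within a few CPM of each other. Those in Spp1-low beta cells of libraries 1 and 3 were each more than 2 times those of libraries 2 and 4. Delta cells held 39.8, 28.0, 38.4 and 25.9 CPM, or 51.7, 39.0, 51.0 and 36.3 CPM with hormone genes out of the totals. Non-endocrine cells held 70.8, 41.2, 45.3 and 31.2 CPM. Both classes thus also had their 2 larger values in libraries 1 and 3, so this order was not particular to beta cells. The range of Trp53inp1 over libraries in Spp1-low beta cells was 1.25 on the log2 scale, and 1.10 with hormone genes out of the totals. With hormone genes in the totals it was 0.47 in delta cells and 0.97 in non-endocrine cells. Trp53inp1 and Gdf15 were the 2 of 7 genes with a range past 2-fold there, where 5.49% of all genes had one. With hormone genes in the totals 0 genes had such a range in Spp1-high beta cells, where 15.1% of all genes had one. Without them Cdkn2b had a range of 1.23 there, which 6.27% of all genes reached. In delta cells 0 genes had a range past 2-fold, where 3.27% of all genes had one. In non-endocrine cells Cdkn2b and Gdf15 had one, as did 18.4% of all genes. In alpha cells 0 of 6 genes tested had such a range, where 2.51% of all genes had one. The ratio of beta over alpha cells for Trp53inp1 was -0.31, -1.20, -0.07 and -1.01. With hormone genes out of the totals it was -0.06, -0.73, 0.14 and -0.53, of mixed sign.

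Mdm2 (chromosome 10, 117688875 to 117710758, minus strand) is itself a p53 target and differed little among endocrine cells. Spp1-high beta cells held 36.3, 24.9, 35.9 and 31.4 CPM, Spp1-low beta cells 45.3, 25.3, 39.6 and 27.0 CPM, alpha cells 35.5 to 40.5 CPM and delta cells 33.3 to 39.0 CPM, and all these ranges overlapped. Non-endocrine cells held 59.7, 72.8, 65.0 and 89.4 CPM, above every endocrine value. With hormone genes out of the totals the ratio of beta over non-endocrine cells moved to 0.13, -0.28, -0.04 and -0.47, from which no direction can be read. The 3 genes most similar to Mdm2 over the 20 profiles were Mat2a (0.97), the p53 target Bax (0.97) and Ints11 (0.97).

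Aen (chromosome 7, 78895854 to 78911209, plus strand) encodes a nuclease that degrades DNA and RNA during apoptosis. It stood at 64.1, 29.8, 56.5 and 33.3 CPM in Spp1-high beta cells and at 48.8, 28.1, 48.3 and 30.1 CPM in Spp1-low beta cells, against 28.2, 29.0, 32.8 and 33.9 CPM in alpha cells and 19.8, 16.8, 23.0 and 20.7 CPM in delta cells. Both groups of beta cells overlapped alpha cells and lay above delta cells on this scale. The ratio of beta over alpha cells was 0.83, -0.03, 0.54 and -0.12. With hormone genes out of the totals it was 1.14, 0.57, 0.78 and 0.47, higher in every library, as were 35.8% of all genes. With hormone genes in the totals, Aen and Cdkn1a were higher in beta than in delta cells in every library. They were 2 of 7 tested, where 7.05% of all genes were higher. With hormone genes out of the totals Trp53inp1, Mdm2 and Bbc3 were higher in every library too, making 5 of 7, where 35.8% of all genes were higher and 29.4% lower. The ratio of beta over delta cells was 1.19, 0.51, 0.92 and 0.40, and 1.58, 1.19, 1.28 and 1.04 with hormone genes out of the totals, which is past 2-fold in every library on that scale alone, where 2.45% of all genes were higher and 2.88% lower. Bbc3 stood at 21.6, 9.76, 29.5 and 11.9 CPM in Spp1-high beta cells and at 22.9, 9.59, 22.4 and 9.86 CPM in Spp1-low beta cells, against 22.5, 21.9, 24.9 and 22.8 CPM in alpha cells. Libraries 2 and 4 were thus below alpha cells, while libraries 1 and 3 were near them. The ratio of beta over alpha cells for Bbc3 was -0.01, -0.70, 0.04 and -0.71. With hormone genes out of the totals it was 0.21, -0.34, 0.23 and -0.35. Delta cells held 12.97 to 18.9 CPM.

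Gdf15 (ENSMUSG00000038508, chromosome 8, 70629393 to 70632456, minus strand), a secreted protein of the TGF-beta superfamily that cells release under stress, was higher in delta cells than in beta and alpha cells. It stood at 13.5, 15.3, 19.5 and 21.7 CPM in Spp1-high beta cells, 48.7, 14.5, 44.1 and 25.9 CPM in Spp1-low beta cells, 3.95, 9.95, 11.5 and 14.2 CPM in alpha cells and 89.3, 116, 90.8 and 168 CPM in delta cells. Each delta value lay above every beta and alpha value. The ratio of beta over delta cells was -1.39, -2.37, -1.26 and -2.33, and -1.16, -1.96, -1.02 and -1.84 with hormone genes out of the totals. It was the 1 gene of 7 tested that passed 2-fold between beta and delta cells, where 5.09% of all 6776 genes were lower and 1.49% higher. At 5000 UMIs per cell, 7.36, 5.55, 11.9 and 8.88% of beta cells had a Gdf15 UMI, with 1.34, 3.15, 2.58 and 6.06% of alpha cells and 29.5, 31.4, 27.4 and 38.9% of delta cells. In dendritic cells it was 0 of 138 in library 1 and 0 of 173 in library 3, at a median of 10338 UMIs per cell. With the 631 cells that met several hormone thresholds kept in each class, the ratio to delta cells no longer passed 2-fold in every library, which left 0 of the genes past it.

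**Figure D2:**
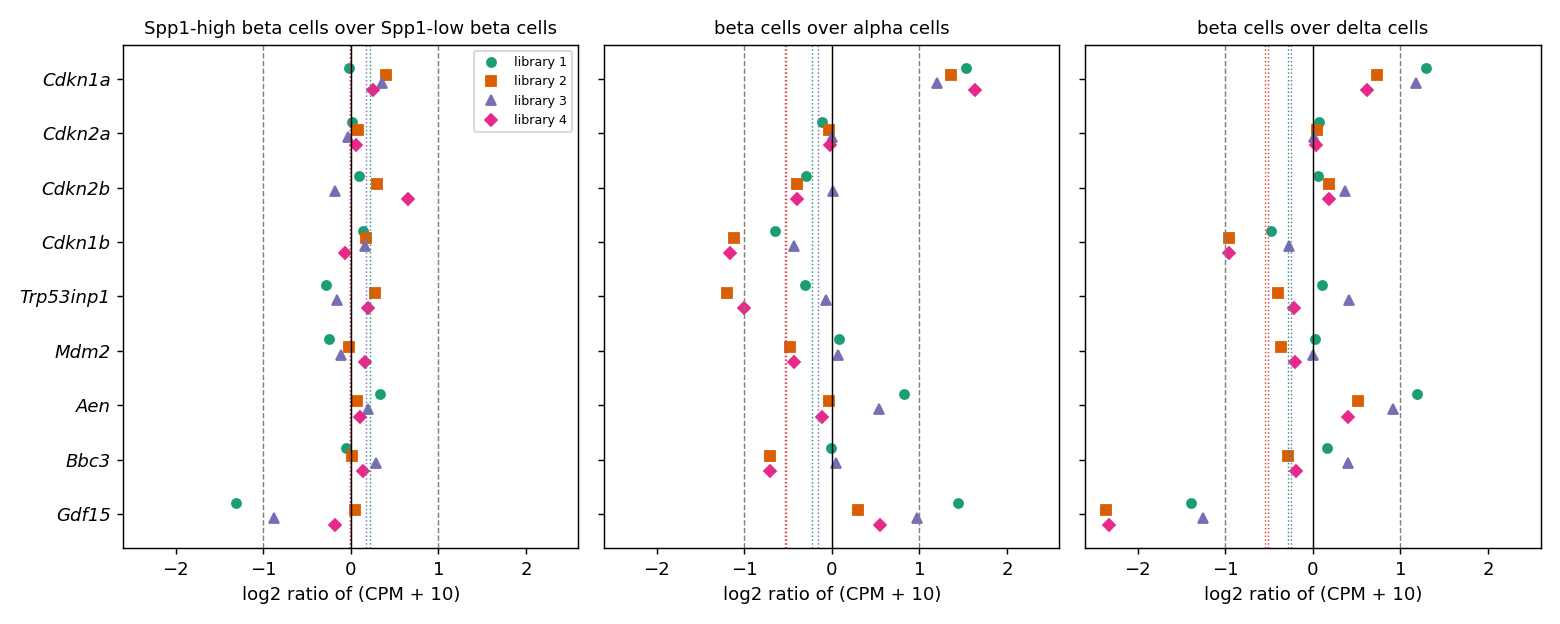
Log2 ratio of CPM with 10 CPM added (x axis) for each gene (y axis), for Spp1-high over Spp1-low beta cells, beta over alpha cells and beta over delta cells, with 1 point per library. Dashed lines mark 2-fold and dotted lines the median gene of a library. Cdkn1a passes 2-fold over alpha cells in all 4 libraries, and Gdf15 below delta cells in all 4.

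Between Spp1-high and Spp1-low beta cells, 0 of 7 genes passed 2-fold in every library, where 0.0685% of all 5843 genes were higher and 0.0171% lower. Cdkn1a was close in both groups, with a ratio of -0.02, 0.40, 0.36 and 0.26 in libraries 1 to 4. Aen had a ratio of 0.33, 0.07, 0.19 and 0.11, higher in every library, as were 25.2% of all genes. Hormone genes took 35.0, 55.9, 36.6 and 54.8% of UMIs in Spp1-high beta cells, against 47.3, 57.8, 45.0 and 56.7% in Spp1-low beta cells. With hormone genes out of the totals the ratio of Aen was 0.08, 0.02, 0.02 and 0.07. That of Cdkn1a was then -0.31, 0.36, 0.16 and 0.20. Gdf15 was lower in Spp1-high beta cells of libraries 1 and 3, with ratios of -1.32 and -0.87, and near equal in libraries 2 and 4, with 0.05 and -0.18. Without hormone genes in the totals its ratio was -1.73, 0.02, -1.15 and -0.27 in libraries 1 to 4. Of genes linked to senescent secretion, the chemokine gene Cxcl1 stood at 32.0, 77.2, 16.9 and 133 CPM in Spp1-high beta cells and at 5.32, 15.8, 5.82 and 35.1 CPM in Spp1-low beta cells. Its ratio was 1.46, 1.75, 0.77 and 1.66, short of 2-fold in library 3. In that list of 28 genes, 8 could be tested and 0 passed 2-fold. In the list of other p53 targets, 14 of 30 could be tested, 0 passed, and the list's median was 0.02.

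The other lists were read between beta and alpha cells in the same way. Of 15 p53 targets tested besides the 9 genes, 0 passed 2-fold in either direction, 1 was higher in every library and 5 were lower, where 12% of all genes were higher and 58.2% lower. Those lower included Apaf1 (median ratio -0.92), a part of the apoptosome, Sesn1 (-0.83) and the repair nuclease Ercc5 (-0.66). The list's median was -0.28, beside -0.38 for all genes. It was 0.18 with hormone genes out of the totals, with 6 of 18 higher and 3 lower in every library, where 35.8% of all genes were higher and 35.4% lower. Of 7 regulators of p53 tested, 0 passed 2-fold and 5 were lower in every library, where 58.2% of all genes were lower. The kinase Atr (-0.99), the p53 inhibitor Mdm4 (-0.82) and the deubiquitinase Usp7 (-0.81) were lower in beta cells in every library. With hormone genes out of the totals 6 of 8 regulators were lower and 0 higher in every library, where 35.4% of all genes were lower. The median of the regulators was then -0.32, and 0 passed 2-fold. Of the integrated stress response genes, 7 of 11 were past 2-fold higher in beta cells and 0 lower, where 1.83% of all genes were higher and 4.35% lower, led by Nupr1 (3.50), Trib3 (2.38) and Atf5 (2.21), and a list median of 1.44. Among other genes linked to senescence, the growth factor receptor Igf1r stood at 464, 741, 459 and 715 CPM in beta cells against 38.9, 47.0, 58.1 and 36.1 CPM in alpha cells, while the survival gene Bcl2 had a median ratio of -1.64. Of 10 secretion genes tested, 1 was past 2-fold higher in beta cells and 2 were lower, and those lower were the binding proteins Igfbp4 (-2.92) and Igfbp7 (-2.48).

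Against delta cells, 3 of 16 other p53 targets were past 2-fold lower in beta cells and 0 higher, where 5.09% of all genes were lower and 1.49% higher. With hormone genes out of the totals 1 of 17 was past 2-fold lower, where 2.88% of all genes were. On that scale 10 were higher and 6 lower in every library, where 35.8% of all genes were higher and 29.4% lower. The list's median was 0.35, against -0.21 with hormone genes in the totals. Btg2, an early response gene that slows proliferation, stood at 521, 134, 499.7 and 155 CPM in beta cells. Delta cells held 1536, 728, 1499.7 and 729 CPM. The polo-like kinase gene Plk2 had a median ratio of -1.29 and Perp, a membrane protein that promotes apoptosis, one of -1.09. Of 6 p53 regulators tested, all 6 were lower in every library, as were 72.3% of all genes, and 0 of them passed 2-fold. With hormone genes out of the totals 5 of 7 regulators were lower and 0 higher in every library, where 29.4% of all genes were lower.

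Against non-endocrine cells, 0 of 8 genes passed 2-fold in every library, where 16.9% of all 8239 genes were lower in beta cells and 3.65% higher. Cdkn2b came nearest, at -0.83, -2.08, -1.02 and -2.23, followed by Gdf15 at -0.71, -2.57, -0.58 and -3.12. For several genes the direction rested on the hormone share. The ratio of Cdkn1a was -0.10, -1.05, -0.18 and -1.48 with hormone genes in the totals and 0.60, 0.11, 0.54 and -0.35 without them. Without them Cdkn1b and Trp53inp1 were higher in every library, with medians of 0.50 and 0.27 against -0.32 and -0.50 with them, and Bbc3 had a median of 0.46 against -0.18. Gdf15 was then at -0.14, -1.75, 0.02 and -2.21, no longer lower in every library. Aen was the third gene higher in every library, where 47.6% of all genes were, and 0 of 8 genes passed 2-fold, where 10.7% of all genes were higher and 8.69% lower. The median gene likewise had ratios of -0.33 to -0.80 with them and 0.10 to 0.31 without them. Trp53 itself stood at 34.2, 18.2, 33.6 and 18.7 CPM in beta cells and at 113, 125, 123 and 180 CPM in non-endocrine cells. Of 28 secretion genes, 22 were past 2-fold lower in beta cells, and 0 higher. Non-endocrine cells were a different mix in each library, with 678, 30, 379 and 17 ductal cells and 668, 26, 512 and 1 B cells in libraries 1 to 4, so their summed level and its range over libraries cannot be told apart from that mix.

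The non-endocrine cells were therefore also read by type, each cell being given the class of which it had at least 3 markers and more than of any other. Summed over libraries, Cdkn1a stood at 670 CPM in 103 pericytes and smooth muscle cells (542 to 814 CPM over 4 libraries), 509 CPM in 497 endothelial cells (389 to 687 CPM) and 442 CPM in 1104 ductal cells. It stood at 16.8 CPM in 1207 B cells and 48.7 CPM in 108 plasma cells, and thus differed by more than 10 times among cells of the same libraries. Cdkn1b stood at 190 CPM in 423 T cells and 132 CPM in B cells, against 18.03 CPM in 338 fibroblasts and 9.70 CPM in 70 acinar cells. Of the INK4 genes, both were found in dendritic cells, where libraries 1 and 3 held 156 and 143 CPM of Cdkn2b and 13.8 and 31.6 CPM of Cdkn2a. Endothelial cells held 29.4, 142, 29.1 and 178 CPM of Cdkn2b, lower in libraries 1 and 3 than in libraries 2 and 4. Plasma cells held 23.6 and 9.07 CPM of Cdkn2a in libraries 1 and 3.

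In libraries 1 and 3, Trp53inp1 was higher in plasma cells than in any other non-endocrine class, at 594 CPM (95% interval 562 to 627) in 77 cells of library 1 and 491 CPM (439 to 547) in 27 cells of library 3. In library 2 only 4 plasma cells were found, with 128 CPM (70.2 to 216). Ductal cells held 65.7, 161 and 62.6 CPM in libraries 1 to 3 and T cells 49.4, 117 and 83.5 CPM, so in library 2 the 3 classes were not separated. B cells, from which plasma cells arise, held 54.1 CPM in library 1 and 42.4 CPM in library 3. Mdm2, summed over libraries, ranged from 17.6 CPM in acinar cells to 98.5 CPM in macrophages. Aen stood at 89.9 and 79.8 CPM in fibroblasts of libraries 1 and 3 and at 36.3 to 103 CPM in pericytes and smooth muscle cells, against 3.17 and 5.98 CPM in dendritic cells of libraries 1 and 3. Bbc3 stood at 33.9 and 34.2 CPM in dendritic cells of these libraries and at 11.4 to 37.9 CPM in endothelial cells, and these ranges overlapped.

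Gdf15 was found in macrophages at 89.0 to 354 CPM over the 4 libraries, in endothelial cells at 66.3 to 255 CPM, and in pericytes and smooth muscle cells at 42.5 to 206 CPM. Schwann cells gave 324, 1350, 23.1 and 1096 CPM, but these rest on 9, 12, 20 and 13 cells. Lymphoid cells held little, with 4.04 CPM in B cells and 4.91 CPM in T cells, and 369 dendritic cells gave 2 UMIs in all.

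**Figure D3:**
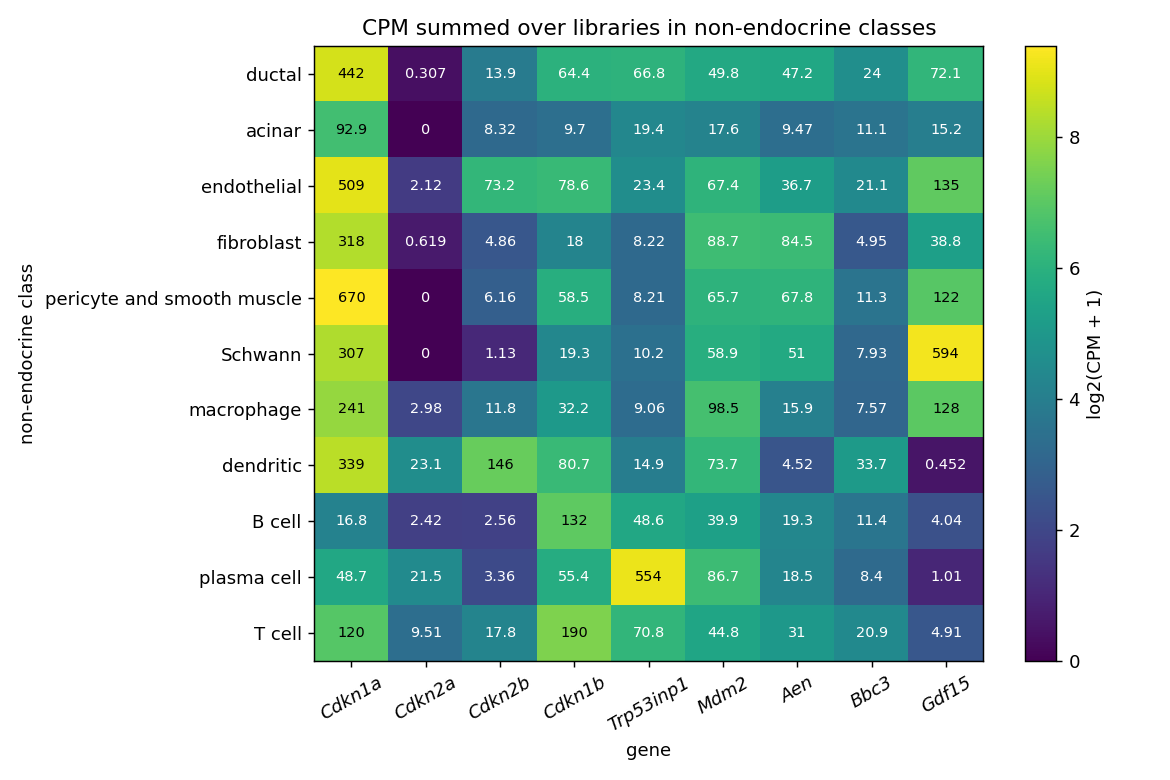
CPM of the 9 genes (x axis) in 11 non-endocrine classes (y axis), summed over libraries, with the colour giving log2 of CPM with 1 CPM added and the number in a cell the CPM. Cdkn1a is at 16.8 CPM in B cells and 670 CPM in pericytes and smooth muscle cells, and Trp53inp1 is at 554 CPM in plasma cells and at 70.8 CPM or less elsewhere.

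Beta cells were next compared with each other within a library by their own Cdkn1a. Each beta cell was thinned to 5000 UMIs and put into a group by its Cdkn1a UMIs. Cells with 3 or more numbered 99, 275, 131 and 216 in libraries 1 to 4, against 235, 1838, 287 and 1147 with 0. This split and its thresholds were chosen after the data had been seen. Genes were then summed over the full UMIs of each group, and Cdkn1a itself was left out of the counts. The median gene had a ratio of 0.10, 0.00, 0.13 and -0.03.

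Beta cells with 3 or more Cdkn1a UMIs held more transcripts of 10 of 15 other p53 targets tested in every library. Of all genes, 30.1% were higher in every library and 6.02% lower. Phlda3, an inhibitor of AKT signalling, stood at 76.9, 20.2, 58.7 and 36.4 CPM in them, against 14.4, 1.10, 19.5 and 0.751 CPM in cells with 0. Ccng1 (cyclin G1), which takes part in the feedback on p53, stood at 171, 77.3, 168 and 78.3 CPM against 63.3, 29.7, 77.7 and 29.9 CPM. Both were higher in the cells with 3 or more in each of the 4 libraries, and these 2 were all the genes that passed 2-fold higher in every library, 0.0335% of 5967, with 0 genes lower.

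At 1.5-fold, 8 genes (0.134%) were higher in every library and 0 lower. Beside Phlda3 and Ccng1 they were Trp53inp1, Bax, Zmat3, Ddit3, Sqstm1 and Hmox1, of which 5 are among the 9 genes or the 30 other p53 targets. Trp53inp1 stood at 84.1, 35.9, 82.1 and 44.4 CPM in cells with 3 or more Cdkn1a UMIs, against 31.6, 16.1, 40.9 and 15.4 CPM in cells with 0, a ratio of 1.18, 0.82, 0.86 and 1.10. Bax, which permeabilises mitochondria in apoptosis, stood at 292, 204, 289 and 226 CPM against 160, 115, 171 and 122 CPM. Zmat3, an RNA-binding p53 target, stood at 63.4, 33.1, 67.7 and 29.3 CPM against 26.8, 16.04, 31.3 and 14.96 CPM. The other 3 are not among the 9 genes or the 30 other p53 targets. They are Ddit3, a factor of the integrated stress response, the autophagy receptor gene Sqstm1, and Hmox1, which breaks down haem.

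Of the 9 genes, 6 could be tested here and 5 were higher in every library, where 30.1% of all genes were higher in every library and 6.02% lower. Mdm2 had a ratio of 0.86, 0.45, 0.47 and 0.78, Aen of 0.71, 0.65, 0.43 and 0.72, Bbc3 of 0.89, 0.47, 0.86 and 0.83, and Gdf15 of 0.92, 0.90, 0.22 and 1.18. Cdkn1b, which is no classical p53 target, had 0.17, -0.04, 0.33 and -0.03, near the median gene. Of the 15 other p53 targets 4 were past 1.5-fold, while Rrm2b, which supplies nucleotides for repair, had 0.02, -0.10, 0.10 and -0.17. Trp53 had a ratio of 0.15, 0.46, 0.35 and 0.68 and was the 1 of 6 regulators tested that was higher in every library. Of 11 integrated stress response genes 9 were higher in every library and 1 past 1.5-fold.

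**Figure D4:**
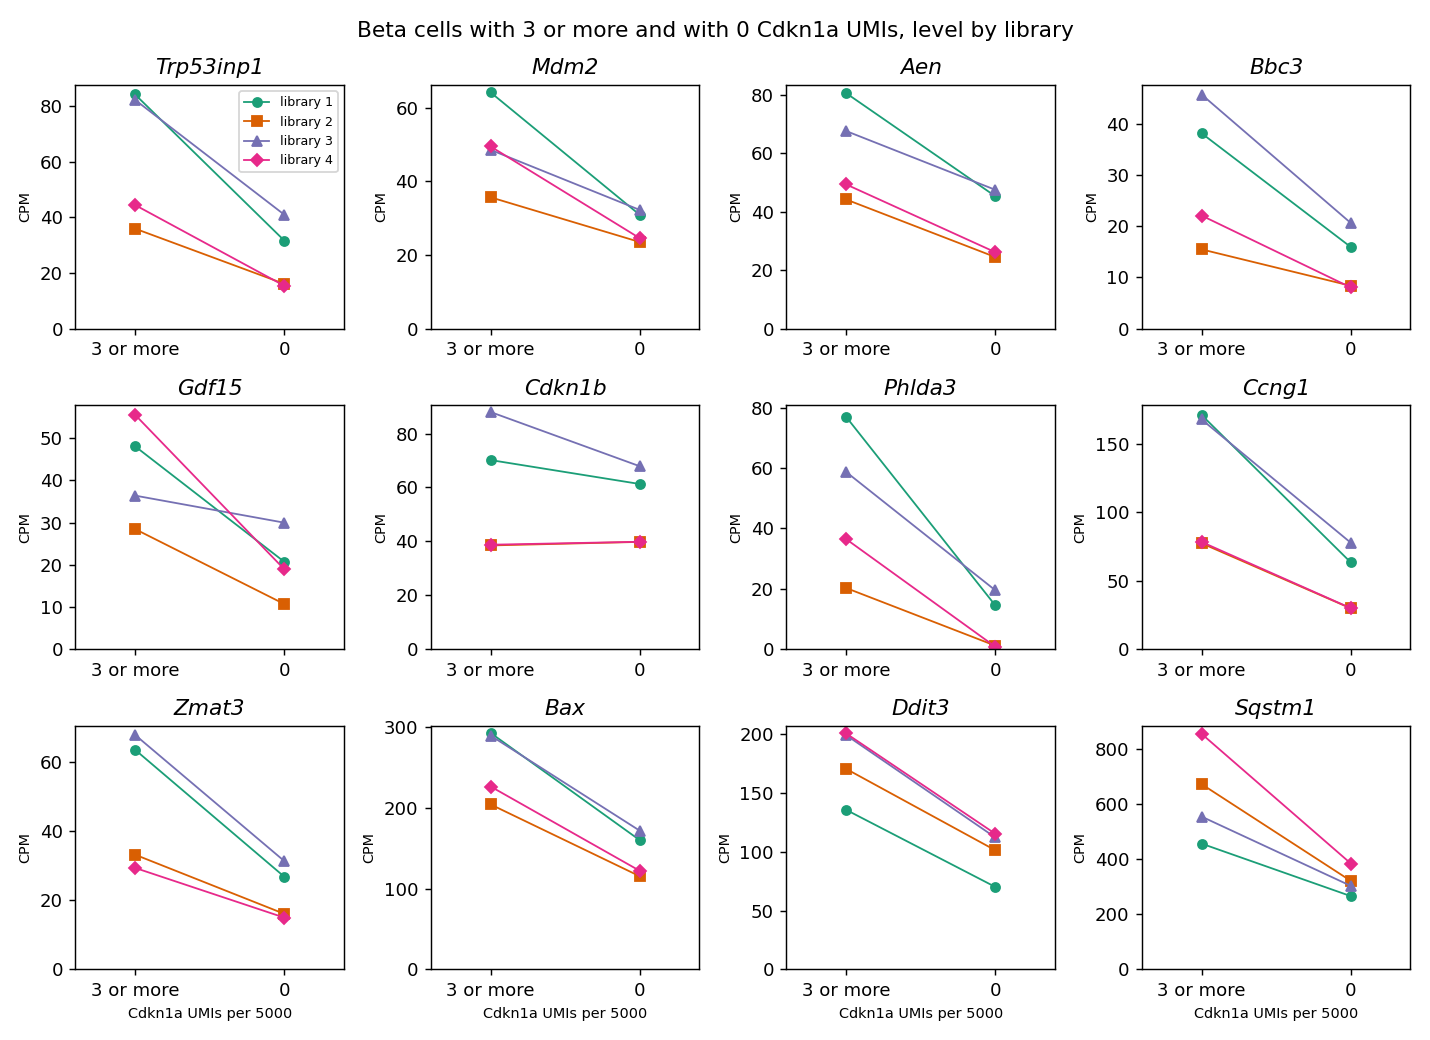
CPM (y axis) of 12 genes in beta cells with 3 or more and with 0 Cdkn1a UMIs at 5000 UMIs per cell (x axis), with 1 line per library. All lines of Phlda3, Ccng1, Trp53inp1, Bax and Zmat3 are higher at 3 or more, while those of Cdkn1b in libraries 2 and 4 are nearly level.

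The groups were close but not equal in other respects. Cells with 3 or more Cdkn1a UMIs had a median of 43993, 49342, 44106 and 41584.5 UMIs, against 43294, 40685, 47190 and 36410 UMIs in cells with 0. Mitochondrial transcripts took a median of 2.13, 1.47, 2.23 and 1.34% of UMIs, against 2.14, 2.10, 2.18 and 1.95%. Spp1-high cells made up 60.6, 4.36, 58.8 and 15.7%, against 62.1, 3.86, 47.4 and 9.07%. Endothelial markers, whose cells are rich in Cdkn1a, summed to 41.3, 97.1, 4.21 and 5.97 CPM, against 18.0, 7.72, 7.49 and 2.91 CPM, and so differed most in library 2. Acinar markers in library 1 summed to 47.9 CPM, against 8436 CPM. With cells carrying markers of 7 further classes left out, 10 genes passed 1.5-fold, with all 8 among them, and with hormone genes out of the totals 11 passed, with 7 of the 8 among them.

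The same split, at 2 or more Cdkn1a UMIs, could be made in 8 further pairs of class and library with at least 50 cells in each group: delta cells of library 4, ductal cells of libraries 1 and 3, dendritic cells of libraries 1 and 3, endothelial cells of library 3, and fibroblasts and macrophages of library 1. These cells are other cells than the beta cells above, from the same libraries. Phlda3 was higher in 8 of 8 pairs, with a median ratio of 0.87 (0.38 to 1.48), Ccng1 in 8 with 0.54 (0.29 to 0.98), Bbc3 in 8 with 0.71 (0.33 to 1.46), Bax in 8 with 0.44, Zmat3 in 8 with 0.54 and Trp53inp1 in 8 with 0.36. Of 3109 genes at 20 CPM or more in every pair, 1.22% were higher in all 8, and Ccng1 and Bax were the 2 of these 6 genes that met that minimum.

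Mdm2, Ddit3, Sqstm1 and Hmox1 were higher in 7 pairs. Gdf15 was higher in 5, with 103 CPM against 46.4 CPM in ductal cells of library 1 and 91.0 CPM against 21.3 CPM in those of library 3. In macrophages it was lower, with 93.3 CPM against 107 CPM, and in dendritic cells there were too few UMIs to read. Aen was higher in 5 pairs and Cdkn1b in 2. Trp53inp1 stood at 76.2 CPM against 58.8 CPM in ductal cells of library 1 and 10.7 CPM against 5.48 CPM in macrophages. No library had 50 alpha cells in both groups.

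**Figure D5:**
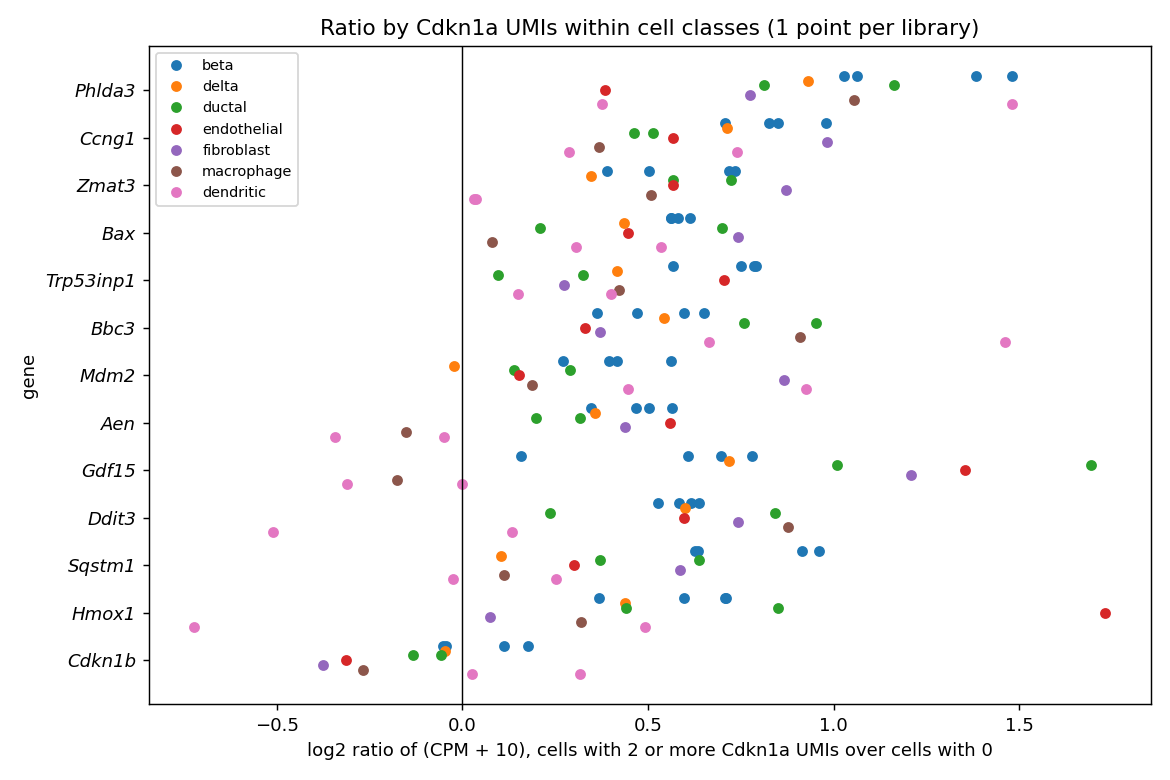
Log2 ratio of CPM with 10 CPM added (x axis) of cells with 2 or more over cells with 0 Cdkn1a UMIs at 5000 UMIs per cell, by gene (y axis), with 1 point per class and library and classes by colour. Points of Phlda3, Ccng1, Zmat3, Bax, Trp53inp1 and Bbc3 all lie above 0, while those of Cdkn1b lie on both sides.

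Between libraries, 4 of 13 other p53 targets tested had a range past 2-fold in Spp1-low beta cells, where 5.49% of all genes had one, and the other 9 did not. The same 4 did, of 16 tested, with hormone genes out of the totals, where 5.61% of all genes had one. They were Phlda3, Ephx1, Btg2 and Ccng1, and this comparison was chosen after values were seen. Phlda3 held 40.2, 3.78, 34.7 and 5.47 CPM in libraries 1 to 4, Ephx1 21.8, 3.75, 21.1 and 3.52 CPM, Btg2 426, 134, 406 and 154 CPM, and Ccng1 97.6, 36.5, 106 and 36.3 CPM. With hormone genes out of the totals Phlda3 held 76.4, 8.96, 63.1 and 12.6 CPM. In each of them libraries 1 and 3 were higher than libraries 2 and 4. Cdkn1a itself had the same order there, at 262, 167, 239 and 190 CPM, with a log2 range of 0.62, short of 2-fold. With hormone genes out of the totals Cdkn1a stood at 497, 396, 434 and 438 CPM, no longer in that order. For Btg2, Ccng1 and Phlda3 the order of libraries 1 and 3 above 2 and 4 was not confined to beta cells. Btg2 held 1536, 728, 1499.7 and 729 CPM in delta cells and 502, 331, 393 and 354 CPM in alpha cells. Its levels in non-endocrine cells were 574, 323, 496 and 387 CPM. Ccng1 held 48.9, 44.5, 59.7 and 41.3 CPM in alpha cells and 49.6, 31.7, 58.9 and 36.6 CPM in non-endocrine cells. In delta cells Ccng1 held 43.8, 36.6, 36.3 and 32.7 CPM, not in that order. Phlda3 held 16.1, 11.6, 21.3 and 11.9 CPM in alpha cells and 4.81, 2.66, 5.52 and 2.30 CPM in delta cells. In non-endocrine cells Phlda3 held 67.4, 71.0, 86.6 and 116 CPM, not in that order. Xbp1, the gene the study targeted, stood at 67.6, 96.3, 60.0 and 96.1 CPM in Spp1-low beta cells, and at 128, 228, 109 and 222 CPM with hormone genes out of the totals. On that second scale Spp1-high beta cells held 56.4, 209, 46.3 and 212 CPM, alpha cells 165 to 200.2 CPM and delta cells 195 to 236 CPM. No library was given a genotype from these values. Genotype, the share of hormone transcripts and the number of cells per library cannot be told apart in these values, and no library could be tied to a mouse.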

How the data were processed

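Dispersed islet cells of 4 samples were profiled by 10x single-cell RNA-seq. The deposited values are counts of UMIs per gene and cell in 1 pooled matrix, which the authors made with Cell Ranger 6.1.2 on build mm10, per the submitters' processing notes. Its 66890401 entries, for 32285 genes in 19987 barcodes, are whole numbers. The annotation and strand setting used for counting are not given in the sources used here. The planned test between genotypes was not made, because no label ties a barcode number to a sample, and no p-value is given. Cells with at least 500 genes and at most 20% mitochondrial UMIs were kept. Cells with Ppy at 1% or more of UMIs and no other hormone over its threshold were kept apart. UMIs were summed per class and library, divided by the class total and multiplied to CPM, and ratios used a pseudocount of 10 CPM, a minimum of 20 CPM and 50 cells per class. Gene coordinates came from GENCODE M21, in which 32235 of 32285 identifiers were found. Ddit3 has 2 identifiers, of which the one with more UMIs was used.

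All 9 genes were named in every class. Of each list, up to 3 genes with the largest median ratio and 1 sign in every library were named, and so were the 3 most similar genes over profiles. A gene of the secretion list that this rule names is not reported here. Genes of the split by Cdkn1a were named because they passed its threshold, and genes compared between libraries after their values were seen. The genes and lists were chosen with earlier results of these data known. The ratio step and the 2-fold rule were tested on simulated data, and the thinning step was not. Alternatives covered the hormone genes in the totals, the pseudocount, the cell filter, averaging over cells, low values, doublets, the thresholds and each library left out. Tools were Python 3.11.15, numpy 2.4.6, pandas 2.3.3, scipy 1.17.1 and matplotlib 3.10.9.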

Additional observations from a re-analysis of the deposited data

Results flagged for a closer look

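Cells with Ppy at 1% or more of UMIs entered no comparison. They numbered 24, 77, 37 and 59 in libraries 1 to 4. Trp53inp1 stood at 88.0, 73.1, 78.7 and 72.6 CPM in them, above its level in every library of beta, alpha, delta and non-endocrine cells, of which the highest was 70.8 CPM. With hormone genes in the totals, Cdkn1a stood at 18.0, 45.4, 93.3 and 29.5 CPM in the same cells.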

How the results depend on the processing

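No paired analysis was possible because the barcode numbers carry no sample, genotype or replicate number. Of 432 median ratios of the 9 genes recomputed under the alternatives, 394 moved by less than the spread between libraries, 35 moved by more, 18 of these with hormone genes out of the totals, and 3 changed sign from a ratio that had 1 sign in every library. Counting ratios of mixed sign too, 35 medians changed sign, 11 of these among the 36 with hormone genes out of the totals. The 3 were Cdkn1a for beta over non-endocrine cells, at 0.32 with hormone genes out of the totals (-0.62 with them), and Cdkn1b and Trp53inp1 for beta over alpha cells, at 0.24 and 0.092 (-0.88 and -0.66 as reported) when endocrine cells with 3 markers of any non-endocrine class were left out. That last rule removed nearly all endocrine cells, which express some of those markers, and left library 2 alone with 50 cells in both classes. It gave 0 genes past 2-fold for beta over alpha cells and 4 for beta over non-endocrine cells, and no value for the Spp1 groups or delta cells. A version with 7 marker lists, chosen after seeing the data, kept the counts.

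For beta over delta cells, 1 gene was past 2-fold as reported, 3 with hormone genes out of the totals (Cdkn1a, Aen and Gdf15) and 0 with cells over several hormone thresholds kept. For beta over non-endocrine cells it was 0, with 1 (Cdkn2b) at a pseudocount of 1 CPM and 0 to 1 with each library left out, the 1 being Cdkn2b without library 1. Of the 2 genes with a 2-fold range over libraries in Spp1-low beta cells, 1 to 2 kept it with each library left out, and Trp53inp1 alone without library 2. The share of beta cells with Cdkn1a was 52.2% thinned and 85.3% not thinned. For the split of beta cells by Cdkn1a, 8 genes passed 1.5-fold as reported. It was 18 in Spp1-low beta cells alone (3 libraries, with 3 genes lower), 14 at a pseudocount of 1 CPM and 3 at 2 or more UMIs, with 7, 8 and 3 of the 8 among them. With each library left out it was 8 to 15, the highest without library 3, and all 8 were among them each time. Low counts of Cdkn2a and Cdkn2b limit every ratio of these genes in endocrine cells.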
